A study of Mus musculus with 6 samples.

Results

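The fibroblast growth factor (FGF) pathway was examined in tooth germs of Gpr115-KO mice. Gpr115 is an adhesion G protein-coupled receptor, which the files list by its newer symbol, Adgrf4. The set held 40 genes, chosen by symbol: FGF ligands, receptors and co-receptors, docking adaptors, and the Sprouty, Spred, Dusp and Etv genes that limit or read out the signal. They were taken from a count table of 48709 genes. Of the 40, 39 had a row in that table, 22 passed the filter on low counts and 17 did not. Spry3 was not matched to a row and is not analysed here.

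RNA came from first molars of Gpr115-KO mice (genotype Gpr115-/-) and of wild-type (WT) littermates, all of the C57BL/6 strain and at postnatal day 7. There were 3 Gpr115-KO and 3 WT libraries, with 8317302 to 11122821 counts each. Neither the deleted part of the gene nor the number of animals behind a library is stated in the labels, so a p-value reflects how far these libraries spread, which may be technical in part. Adgrf4 itself kept 344, 193 and 301 counts in Gpr115-KO libraries (39.2, 20.6 and 27.5 CPM, counts scaled to a total of 1e+06), against 740, 550 and 664 counts in WT libraries (67.1, 62.5 and 67.5 CPM). The groups were apart, but the difference missed the threshold of 0.05 in the test used for the members (log2 fold change −1.18, SE 0.21, edgeR adjusted p = 0.0887). A germ of this age holds enamel epithelium, odontoblasts, pulp and adjoining tissue, and in such bulk RNA fewer cells of a type and less RNA per cell cannot be told apart.

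FGF ligands bind receptor tyrosine kinases together with heparan sulfate, and the activated receptor signals through the docking protein Frs2 to the Ras-ERK cascade. ERK activity induces the ETS factors Etv1, Etv4 and Etv5 as well as inhibitors of the same cascade: the Sprouty and Spred proteins, and the phosphatase Dusp6, which dephosphorylates ERK. In mouse molar development, ligands made in epithelium (Fgf4, Fgf8, Fgf9, Fgf20) and in mesenchyme (Fgf3, Fgf10) carry signals between the tissues, and loss of the inhibitors Spry2 or Spry4 lets extra teeth form.

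Per length of exon, the feedback genes with the highest levels in the germ were Spry2 and, well below it, Dusp6. Their promoters are shown for that reason, and how far these genes depend on FGF signalling in the germ was not tested. The sequences are from RefSeq (GRCm38.p6), the 250 bases before the transcription start, 5′ to 3′ on the strand of the gene. Capitals mark matches to the ETS-type motifs AGGAAG and CCGGAA on either strand; with only 1 match in these windows, none overlaps another. Spry2 lies at chr14:105896820-105897069 on the minus strand, and Dusp6 at chr10:99262981-99263230 on the plus strand.
Spry2: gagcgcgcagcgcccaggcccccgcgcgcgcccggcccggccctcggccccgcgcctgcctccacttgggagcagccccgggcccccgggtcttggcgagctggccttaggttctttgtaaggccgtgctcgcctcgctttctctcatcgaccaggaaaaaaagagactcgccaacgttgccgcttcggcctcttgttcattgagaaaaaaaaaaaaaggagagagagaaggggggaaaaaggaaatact
Dusp6: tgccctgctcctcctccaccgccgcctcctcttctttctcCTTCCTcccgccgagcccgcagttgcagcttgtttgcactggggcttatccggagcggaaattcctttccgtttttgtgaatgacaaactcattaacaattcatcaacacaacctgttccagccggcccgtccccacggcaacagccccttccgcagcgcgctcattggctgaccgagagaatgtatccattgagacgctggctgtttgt
The Dusp6 window held 1 match to AGGAAG, read on the opposite strand, and the Spry2 window held none of either motif. Among 32851 promoter windows of the same length, 29.5% held AGGAAG, 12.0% held CCGGAA and 38.2% held at least 1 of them. Of the 40 windows RefSeq gives for 31 of the genes studied here, 12 held at least 1. These are letter matches in a short window and say nothing of binding.

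No tested FGF pathway gene passed the test between the genotypes. In edgeR's quasi-likelihood test 0 of the 22 tested members passed an adjusted p of 0.05, where 24 of all 16011 genes tested did (0.150%). DESeq2 and limma-voom likewise called 0 members, against 1.55% and 0.112% of all genes they tested. With the replicate number as a block 0 members were called against 0.450% of all genes, and without the count filter 0 against 1.71%. At an unadjusted p under 0.05 there was 1 member, Spred3, against 12.3% of all genes. The values of Gpr115-KO and WT were fully apart in 2 of the 22 members, Fgfr1 and Fgf14, both lower in Gpr115-KO, where 17.5% of all genes tested had no overlap and 8.99% were lower without overlap. Of the 22 fitted values 14 lay below 0, with a median log2 fold change of −0.19, and over all genes tested 48.7% lay below 0, with a median of 0.01. In 12 of the 22 members the 95% interval of the fold change lay within ±1 on the log2 scale, and in 1 member within ±0.5. Of all 16011 genes tested, 9876 had an interval within ±1 and 2199 within ±0.5.

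**Figure D1:**
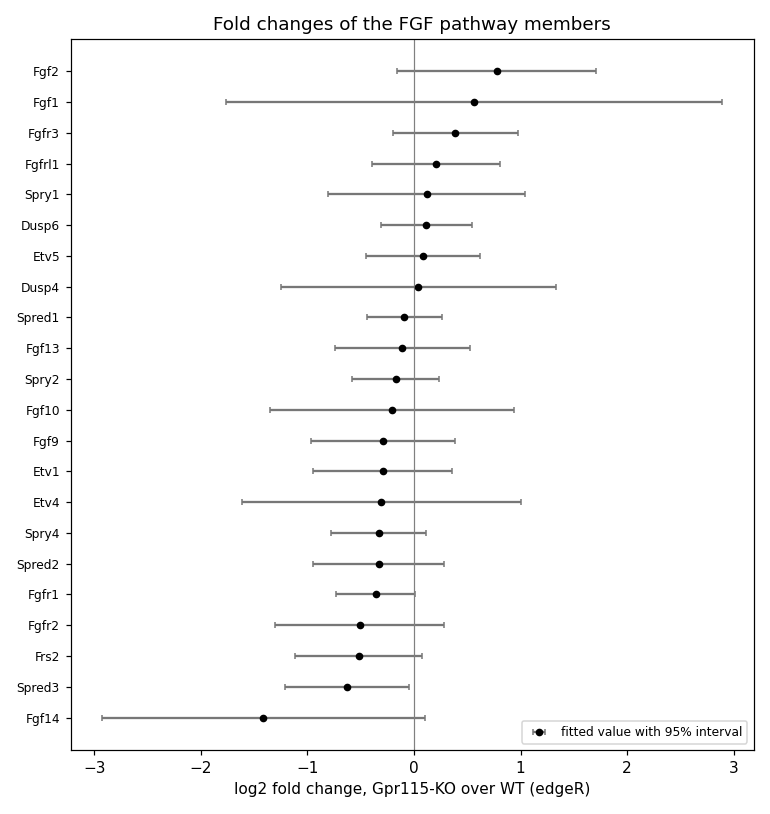
Fold change of the 22 tested FGF pathway members, Gpr115-KO over WT, on the log2 scale (horizontal axis), with points for the edgeR estimate and bars for its 95% interval. The interval of 21 members includes 0, the exception is Spred3 (−1.21 to −0.05, not adjusted for the number of genes), and the widest intervals belong to Fgf1 and Fgf14.

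Few ligands were present in quantity. Of the 15 secreted ligands, the paracrine factors and the hormones Fgf21 and Fgf23 together, 4 passed the count filter: Fgf1, Fgf2, Fgf9 and Fgf10. Fgf1, a ligand of broad receptor range that lacks a classical secretion signal, had the highest mean level per length among them in each group. In Gpr115-KO replicate 3 and in WT replicate 2, Fgf9 and Fgf10 were above it per length. The normalised read count of Fgf1 was 12.6, 34.7 and 3.75 CPM in Gpr115-KO replicates 1 to 3, against 14.1, 3.75 and 16.4 CPM in WT replicates 1 to 3. The groups overlapped, with a wide spread inside each and the highest library in Gpr115-KO replicate 2. Its log2 fold change was 0.56 (95% interval −1.77 to 2.90, edgeR adjusted p = 0.849). Leaving out Gpr115-KO replicate 2 gave −0.50 (edgeR adjusted p = 0.902, in a range of 0.560 to 0.977 over the alternatives).

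Fgf9, the epithelial ligand that signals to dental mesenchyme, varied less between libraries than Fgf1. It had 6.15, 5.13 and 4.21 CPM in Gpr115-KO libraries, against 8.43, 4.32 and 6.10 CPM in WT libraries, with overlapping groups and a log2 fold change of −0.29 (SE 0.31, adjusted p = 0.742 in edgeR). That value shifted when single libraries of either group were left out. It was −0.018 without WT replicate 1, −0.16 without Gpr115-KO replicate 3 and −0.50 without WT replicate 2. Fgf10, the mesenchymal ligand of the papilla that sustains dental epithelium, was spread more widely in Gpr115-KO than in WT. It had 2.62, 1.07 and 5.76 CPM in Gpr115-KO libraries and 4.26, 4.21 and 2.54 CPM in WT libraries, so the lowest and the highest of all 6 values were both in Gpr115-KO. The fitted log2 fold change of Fgf10 was −0.20 (SE 0.52, adjusted p = 0.905 in edgeR), and dropping Gpr115-KO replicate 2 gave 0.21 (edgeR adjusted p = 0.920, in a range of 0.388 to 0.992 over the alternatives).

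Fgf2, a ligand stored in extracellular matrix, had 3.42, 3.85 and 2.74 CPM in Gpr115-KO libraries, against 2.99, 1.02 and 1.73 CPM in WT libraries. WT replicate 1 lay inside the Gpr115-KO range and the other WT libraries below it. A log2 fold change of 0.78 was fitted (95% interval −0.16 to 1.71, edgeR adjusted p = 0.483), the highest fitted value of the 22. Leaving out WT replicate 1 gave 1.26 and leaving out WT replicate 2 gave 0.49. Exons of Fgf2 share 640 nt with Nudt6 on the opposite strand, and because the Nextera XT kit keeps no strand information, reads from that stretch cannot be assigned. Nudt6 itself had 16, 42 and 33 counts in Gpr115-KO libraries, against 35, 19 and 20 in WT libraries.

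**Figure D2:**
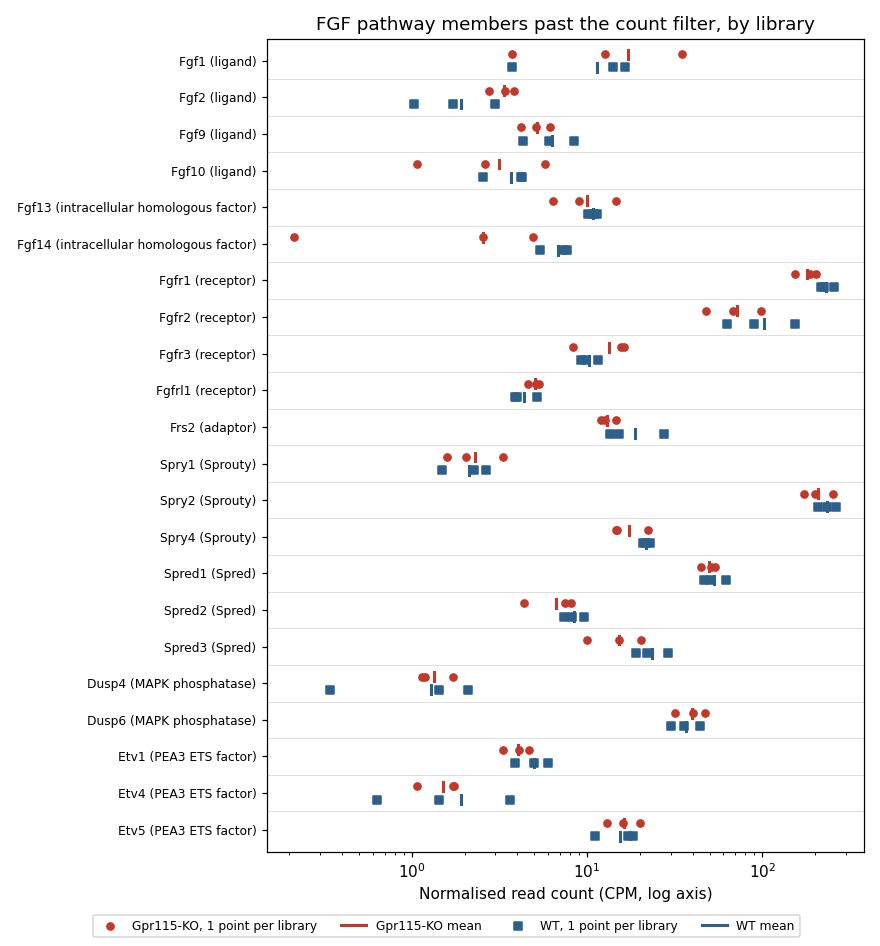
Normalised read count (CPM, log axis) of each tested member in every library, with circles for the 3 Gpr115-KO and squares for the 3 WT libraries and vertical ticks for the group means. Receptor Fgfr1 and inhibitor Spry2 sit highest at 153 to 265 CPM, and only Fgfr1 and Fgf14 have all 3 Gpr115-KO values below all 3 WT values.

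Of the other secreted ligands, all but Fgf23 had at most 12 counts in any library. Fgf4, a ligand of the enamel knots that shape the cusps, had 0 counts in all 6 libraries, a result that allows up to 0.274 to 0.342 CPM in single Gpr115-KO libraries and 0.272 to 0.341 CPM in single WT libraries (counting error only). Fgf20, also a ligand of the knots, had 0 counts in all Gpr115-KO libraries and 1 count in WT replicate 2. Fgf3, expressed in papilla mesenchyme, had 2, 12 and 5 counts in Gpr115-KO libraries, against 2, 4 and 2 in WT libraries, with the value of 12 in Gpr115-KO replicate 2. It did not pass the filter, and a fit without the filter gave a log2 fold change of 1.22 (SE 0.95, adjusted p = 0.712 in edgeR). Fgf8, an early signal of oral epithelium, had 2, 2 and 4 counts in Gpr115-KO libraries against 2, 1 and 2 in WT libraries. In CPM these do not overlap, but the difference is of single reads (edgeR adjusted p = 0.887 without the filter). Fgf5, known from the hair cycle, had 3, 5 and 1 counts in Gpr115-KO libraries against 6, 1 and 2 in WT libraries.

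Fgf7 (a mesenchymal ligand for epithelium), Fgf16, Fgf18 (a ligand of bone and cartilage) and Fgf22 had at most 4 counts in any library. These 4 genes, with Fgf4, Fgf8, Fgf20 and the co-receptor gene Klb, are the 8 members whose raw counts kept them out of the deposited normalised table, and 4 counts was also the highest value of all 8. The hormone Fgf21, a metabolic signal best known from liver, had 2, 1 and 6 counts in Gpr115-KO libraries and 1, 0 and 0 in WT libraries. Its libraries do not overlap in CPM, but the values are a few reads each (edgeR adjusted p = 0.592 without the filter).

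Fgf23, the phosphate-regulating hormone of bone, was counted almost wholly in a single library. It had 0 counts in each Gpr115-KO library and 1, 48 and 0 counts in WT replicates 1 to 3, so the WT value rests on replicate 2 with 5.46 CPM. A fit without the filter did not call it (edgeR adjusted p = 0.721). The sum of 4 bone and osteoblast markers (Bglap, Ibsp, Sp7 and Sost) was 1413, 948 and 1641 CPM in Gpr115-KO libraries and 802, 1186 and 1642 CPM in WT libraries, so WT replicate 2 was not the highest there. The part of adjoining bone in the Fgf23 counts was not tested.

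**Figure D3:**
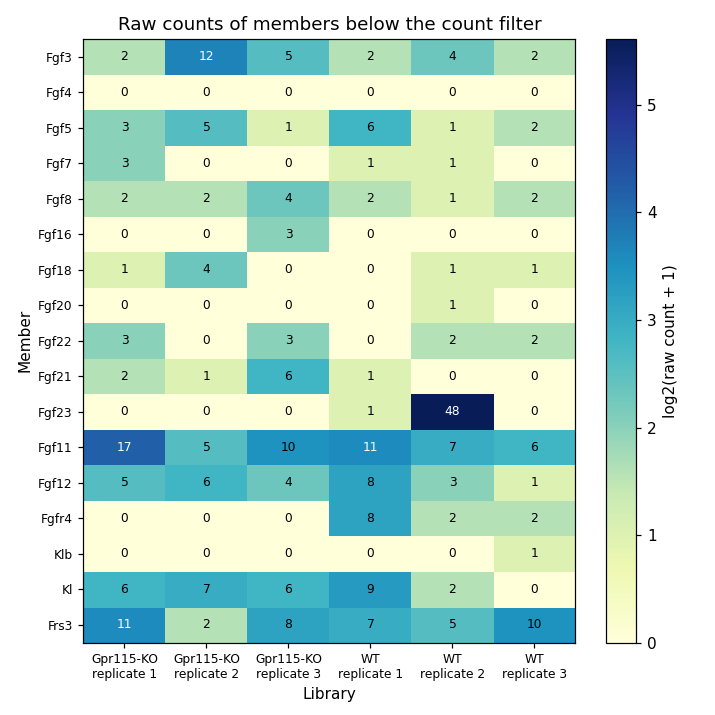
Raw counts of the 17 members that did not pass the count filter, with genes in rows, the 3 Gpr115-KO and 3 WT libraries in columns, the count printed in each cell and colour for log2(count + 1). The 48 counts of Fgf23 in WT replicate 2 stand alone, and Fgfr4 has counts only in WT libraries.

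The intracellular homologous factors Fgf11 to Fgf14 share the FGF fold but act inside the cell, where they bind voltage-gated sodium channels. Fgf14 (ENSMUSG00000025551; chromosome 14, 123977907 to 124677127 on the minus strand of GRCm38) had its 3 Gpr115-KO values below its 3 WT values. It had 4.90, 0.214 and 2.56 CPM in Gpr115-KO replicates 1 to 3, from 43, 2 and 28 counts, against 7.71, 7.27 and 5.39 CPM in WT. The lowest value, in Gpr115-KO replicate 2, set much of the difference. Fgf14 had a fitted log2 fold change of −1.41 (95% interval −2.93 to 0.10, edgeR adjusted p = 0.433). Leaving out Gpr115-KO replicate 2 gave −0.88 and leaving out Gpr115-KO replicate 1 gave −2.24, with edgeR adjusted p of 0.203 to 0.874 over all alternatives.

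Fgf13, on the X chromosome, averaged 9.97 ± 4.17 CPM in Gpr115-KO and 10.8 ± 0.617 CPM in WT (SD, n = 3 each). The means were close and the Gpr115-KO values, 6.38, 8.98 and 14.5 CPM, enclosed the WT values of 10.2 to 11.4 CPM. Fgf11 (5 to 17 counts in Gpr115-KO and 6 to 11 in WT) and Fgf12 (4 to 6 counts in Gpr115-KO and 1 to 8 in WT) stayed below the filter with overlapping groups. Markers of nerve and glia, tissues in which these factors are best known, summed to 29.7 to 36.8 CPM in Gpr115-KO and 28.9 to 36.9 CPM in WT.

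Among the receptors Fgfr1 (ENSMUSG00000031565; chromosome 8, 25513654 to 25575718 on GRCm38, plus strand) led in every library. This receptor, best known from mesenchyme, had 187, 153 and 202 CPM in Gpr115-KO libraries, against 215, 257 and 224 CPM in WT libraries. All Gpr115-KO values were below all WT values, and the gap between the nearest libraries (202 and 215 CPM) was narrower than the range inside either group. For Fgfr1 a log2 fold change of −0.36 was fitted (95% interval −0.73 to 0.01, edgeR adjusted p = 0.419). It lay between −0.45 and −0.23 under every alternative processing, always below 0, with edgeR, DESeq2 or limma adjusted p of 0.332 to 0.803. A stretch of 164 nt is shared with Gm16159 on the opposite strand, which had 20 to 69 counts in Gpr115-KO and 29 to 33 in WT libraries.

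Fgfr2, the receptor through which Fgf3 and Fgf10 reach dental epithelium in its IIIb splice form, varied more. It had 98.4, 47.9 and 68.3 CPM in Gpr115-KO libraries, against 153, 89.6 and 63.2 CPM in WT libraries, with overlapping groups and WT replicate 1 alone at the top. Its log2 fold change was −0.51 (SE 0.35, adjusted p = 0.593 in edgeR), and without WT replicate 1 it was −0.09. Gene-level counts do not separate the IIIb and IIIc forms. Exons of Fgfr2 overlap those of Ctbp2, on the same strand, by 314 nt. Ctbp2 had 119, 86 and 131 counts in Gpr115-KO libraries, against 224, 166 and 119 in WT libraries (log2 fold change −0.56, SE 0.25, edgeR adjusted p = 0.388). The part of reads from the shared stretch in either gene was not tested.

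Fgfr3, a receptor known from cartilage and stratified epithelium, had 15.6, 8.34 and 16.2 CPM in Gpr115-KO libraries and 11.5, 9.89 and 9.25 CPM in WT libraries. Replicates 1 and 3 of Gpr115-KO lay above all WT values and replicate 2 below them (log2 fold change 0.39, SE 0.27, edgeR adjusted p = 0.588). Without Gpr115-KO replicate 2 the value was 0.64, and the edgeR, DESeq2 and limma adjusted p ran over 0.466 to 0.874 in the alternatives. Exons of Fgfr3 share 998 nt with G630022F23Rik on the opposite strand, which had 1 to 8 counts in a library. Fgfrl1, a receptor with no kinase domain that can act as a decoy, averaged 5.01 ± 0.398 CPM in Gpr115-KO and 4.35 ± 0.728 CPM in WT (SD, n = 3 each; edgeR adjusted p = 0.803).

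Fgfr4, a receptor of liver and regenerating muscle, had counts only in WT libraries. It had 0 counts in all 3 Gpr115-KO libraries, against 8, 2 and 2 counts in WT. Taken over each group, with 3 counts as the limit a count of 0 allows, the Gpr115-KO level was at least 3.92-fold lower. This limit covers counting error in Gpr115-KO only. It takes the 12 WT counts as they stand and leaves out the spread between libraries. The limit rests on WT replicate 1, without which it was at least 2.08-fold lower. The gene was below the filter. When every gene was tested without it, the unadjusted p was 0.00748 and the edgeR adjusted p 0.190.

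**Figure D4:**
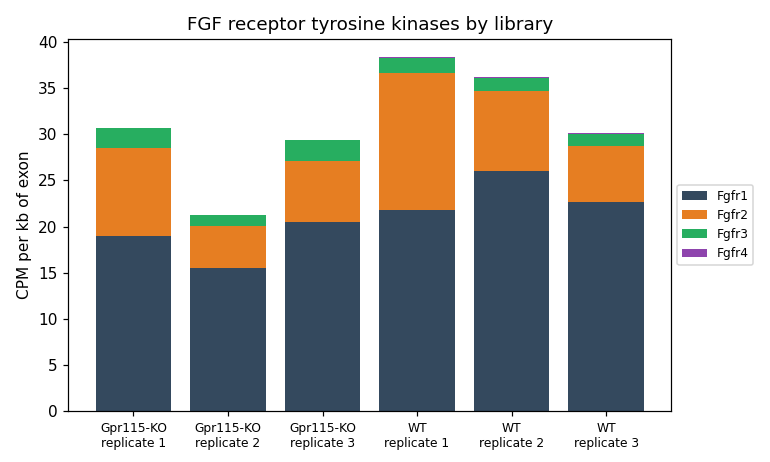
Level of the 4 FGF receptor tyrosine kinases in each library (CPM per kb of exon, stacked bars from 0), with the 3 Gpr115-KO libraries left of the 3 WT libraries. Fgfr1 takes most of each bar, the Gpr115-KO bars reach 21.3 to 30.6 and the WT bars 30.1 to 38.4, and Fgfr4 is too low to be seen.

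Set per length of exon, Fgfr1 and Fgfr2 made up most of the receptor level in both genotypes. Fgfr1 was 68.1% ± 5.67 of the summed level of the 4 kinases in Gpr115-KO and 68.0% ± 9.86 in WT (SD, n = 3 each). Fgfr2 was 25.1% ± 5.18 in Gpr115-KO and 27.6% ± 9.63 in WT. Fgfr3 was 7.12%, 5.47% and 7.70% in Gpr115-KO libraries and 4.19%, 3.82% and 4.29% in WT libraries, so its share did not overlap between the groups; the share was computed after the values were seen and carries no test. The union of all annotated exons was used as length, which understates the level of genes with long alternative exons.

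The co-receptors that the hormones need were scarce. Kl, the Fgf23 co-receptor, had 6, 7 and 6 counts in Gpr115-KO libraries and 9, 2 and 0 in WT libraries. Klb, the Fgf21 co-receptor, had 0 counts in Gpr115-KO and a single count in WT replicate 3. Neither passed the filter.

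Frs2, the docking adaptor that links the receptors to Ras, had 14.6, 12.0 and 12.6 CPM in Gpr115-KO libraries, against 15.2, 27.5 and 13.5 CPM in WT libraries. WT replicate 2 stood apart, and the nearest values of both groups met between 13.5 and 14.6 CPM. Frs2 had a fitted log2 fold change of −0.52 (SE 0.27, adjusted p = 0.464 in edgeR), and without WT replicate 2 it was −0.14. Part of the Frs2 transcript resembles a Galnt1 transcript on the opposite strand at 98.6% over 427 nt, and the treatment of shared reads in counting is unknown here. Frs3, the related adaptor, lies on chromosome 17 like Adgrf4 and had 11, 2 and 8 counts in Gpr115-KO and 7, 5 and 10 in WT, below the filter.

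The Sprouty group was dominated by Spry2, whose promoter is printed above and which held 95.8% ± 0.468 of the summed Sprouty level per length in Gpr115-KO and 95.5% ± 0.284 in WT (SD, n = 3 each). Spry2 had 199, 173 and 253 CPM in Gpr115-KO libraries, against 265, 207 and 232 CPM in WT libraries. The groups overlapped, and the log2 fold change was −0.17 (95% interval −0.58 to 0.24, edgeR adjusted p = 0.751). Per length, Spry2 averaged 99.8 ± 19.5 CPM per kb in Gpr115-KO and 112 ± 13.9 CPM per kb in WT, the highest level of all members in both groups.

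Spry4 had 14.8, 14.6 and 22.3 CPM in Gpr115-KO libraries, against 22.8, 20.9 and 21.6 CPM in WT libraries. Gpr115-KO replicates 1 and 2 lay below WT, and replicate 3 lay inside the WT range. The log2 fold change of Spry4 was −0.33 (SE 0.20, adjusted p = 0.539 in edgeR), and −0.56 without Gpr115-KO replicate 3 (edgeR adjusted p = 0.271, in a range of 0.271 to 0.900 over the alternatives). Spry1 averaged 2.31 ± 0.882 CPM in Gpr115-KO and 2.13 ± 0.595 CPM in WT (SD, n = 3 each; edgeR adjusted p = 0.932). Its exons share 710 nt with Gm42922 on the opposite strand, which had at most 3 counts in any library.

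Of the Spred genes, which dampen the step from Ras to Raf, Spred3 had the smallest p of all members. Spred3 (ENSMUSG00000037239) lies on the minus strand of chromosome 7 (29158829 to 29170411, GRCm38) and shares 202 nt of exon with Ggn on the other strand, which had at most 4 counts in any library. It had 20.3, 10.05 and 15.2 CPM in Gpr115-KO libraries, against 29.0, 22.05 and 19.1 CPM in WT libraries. Gpr115-KO replicate 1 reached into the WT range and the other 2 lay below it. The log2 fold change was −0.63 (95% interval −1.21 to −0.05) with an unadjusted edgeR p of 0.0364 and an edgeR adjusted p of 0.367. Its adjusted p was between 0.131 and 0.874 over 16 alternatives, and the fitted value stayed below 0 in each. The unadjusted p was under 0.05 in 11 of the 16, and leaving out Gpr115-KO replicate 2 gave −0.40.

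Spred1, the most abundant of the 3, averaged 49.8 ± 4.39 CPM in Gpr115-KO and 52.9 ± 7.80 CPM in WT (SD, n = 3 each). Its interval was the narrowest of all members, −0.44 to 0.26 on the log2 scale (edgeR adjusted p = 0.860). Spred2 had 8.09, 4.38 and 7.50 CPM in Gpr115-KO libraries and 7.35, 8.18 and 9.66 CPM in WT libraries, with Gpr115-KO replicate 2 the lowest (log2 fold change −0.33, SE 0.28, edgeR adjusted p = 0.663).

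Genes induced by ERK activity showed no difference past the threshold. Dusp6, whose promoter is printed above, had 40.2, 32.0 and 46.8 CPM in Gpr115-KO libraries, against 35.6, 30.2 and 43.9 CPM in WT libraries. The groups overlapped over nearly their whole range, and the log2 fold change was 0.12 (95% interval −0.31 to 0.54, edgeR adjusted p = 0.847). Dusp4, a nuclear ERK phosphatase, was scarce, with 10, 16 and 13 counts in Gpr115-KO libraries and 23, 3 and 14 in WT libraries (edgeR adjusted p = 0.984).

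Etv5 was the most abundant of the ETS factors of the PEA3 group, with 83.5% ± 1.37 of their summed level per length in Gpr115-KO and 80.2% ± 7.20 in WT (SD, n = 3 each). Etv5 had 16.0, 13.0 and 20.03 CPM in Gpr115-KO libraries, against 11.2, 17.0 and 18.2 CPM in WT libraries (log2 fold change 0.08, SE 0.24, edgeR adjusted p = 0.916). Etv4 had 1.71, 1.07 and 1.74 CPM in Gpr115-KO and 0.635, 3.64 and 1.42 CPM in WT, so the lowest and the highest values were both in WT (edgeR adjusted p = 0.871). Etv1 averaged 4.03 ± 0.679 CPM in Gpr115-KO and 4.97 ± 1.06 CPM in WT (SD, n = 3 each; edgeR adjusted p = 0.728). Etv5 and Etv1 resemble the genes Gm4798 and Gm5454 at 98.6% over 1700 nt and 98.2% over 1453 nt, so reads could be split between them. Gm5454 had at most 6 counts in any library.

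Markers of other tissue differed between libraries, and for some lists the sums did not overlap between the genotypes. Gpr115-KO replicate 2 was the lowest of the 6 libraries in 11 of the 22 members, against 24.9% of all genes tested. It was the highest in 3 of the 22 members, among them Fgf1, against 26.3% of all genes tested. The sum of 11 skeletal muscle markers was 26.8, 271 and 69.3 CPM in Gpr115-KO libraries and 64.7, 50.6 and 41.1 CPM in WT libraries, with no marker at 0 in all libraries. The sum of 12 keratinizing oral epithelium markers was 250, 36.7 and 53.4 CPM in Gpr115-KO and 137, 38.4 and 103 CPM in WT. Markers of ameloblasts, the enamel-forming cells, summed to 126624, 203718 and 96496 CPM in Gpr115-KO and 113103, 128111 and 146177 CPM in WT. Gpr115-KO replicate 2 was thus the highest there as well. Those of odontoblasts summed to 56332, 39085 and 68133 CPM in Gpr115-KO and 34974, 62123 and 77700 CPM in WT. Of 12 marker lists, 2 had sums that did not overlap between the genotypes, where 17.5% of all genes tested had no overlap. Within these 2 lists some single markers overlapped and others did not. The sum of 4 osteoclast markers was 81.7, 78.3 and 59.6 CPM in Gpr115-KO libraries, against 55.7, 50.1 and 45.6 CPM in WT libraries. The sum of 7 erythroid markers was 305, 396 and 158.5 CPM in Gpr115-KO libraries, against 139, 142 and 158.4 CPM in WT libraries, where Gpr115-KO replicate 3 and WT replicate 3 nearly met. The part of these tissues in the values of the members was not tested.

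**Figure D5:**
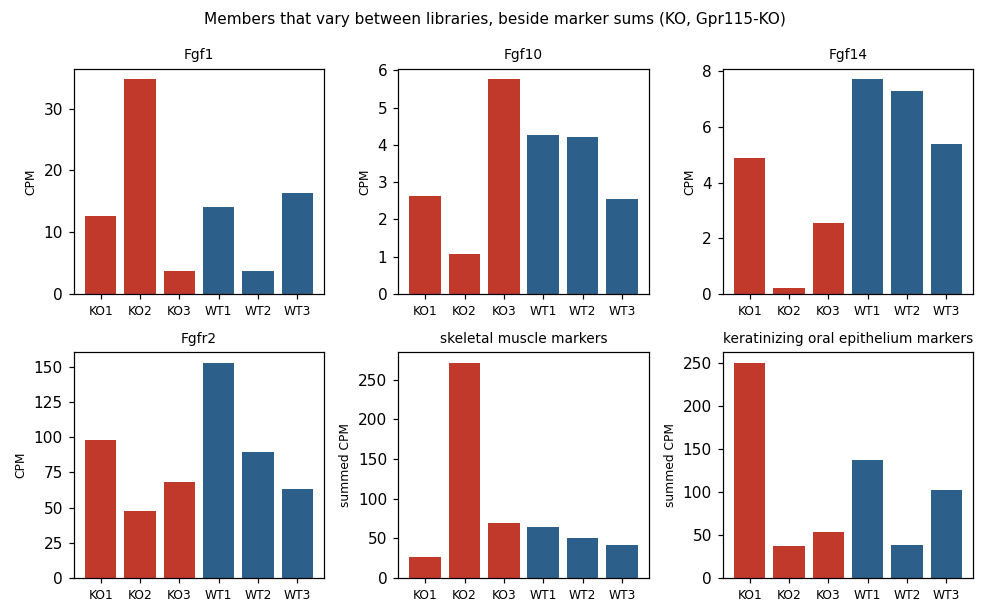
Normalised read counts (CPM) of Fgf1, Fgf10, Fgf14 and Fgfr2 and summed CPM of skeletal muscle and keratinizing oral epithelium markers, as bars from 0 for Gpr115-KO libraries 1 to 3 and then WT libraries 1 to 3. In Gpr115-KO replicate 2 Fgf1 (34.7 CPM) and the muscle sum (271 CPM) are highest and Fgf10, Fgf14 and Fgfr2 lowest. The ameloblast marker sum, not drawn, was also highest in that library (203718 CPM).

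The wider pathway was described by 3 further lists. Heparan sulfate genes, whose products make and edit the sugar chains that hold FGF to its receptor, had 0 of 21 tested members past the adjusted threshold (0.150% of all genes tested), 1 at an unadjusted p under 0.05 (12.3% of all genes tested), and a median log2 fold change of −0.06. The smallest p belonged to Sulf2, an enzyme that removes sulfate groups from heparan sulfate outside the cell, with 49.8, 56.0 and 65.6 CPM in Gpr115-KO libraries and 83.3, 74.0 and 71.3 CPM in WT libraries. All Gpr115-KO values of Sulf2 were below all WT values (log2 fold change −0.42, SE 0.16, edgeR adjusted p = 0.325). Of the 21 tested genes of this list, 4 had no overlap, all lower in Gpr115-KO, against 17.5% of all genes tested. Gpc4, a glypican core protein that carries these chains, averaged 27.5 ± 3.50 CPM in Gpr115-KO and 34.7 ± 2.99 CPM in WT (SD, n = 3 each; edgeR adjusted p = 0.428).

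The transducers between receptor and ERK had 0 of 24 tested members past the adjusted threshold (0.150% of all genes tested). At an unadjusted p under 0.05, where 12.3% of all genes lay, there were 7, of which 4 were higher and 3 lower, with a median log2 fold change of 0.09 over the list. Hras, a Ras GTPase, had 14.6, 31.4 and 13.2 CPM in Gpr115-KO libraries, against 7.80, 6.93 and 10.9 CPM in WT libraries. All Gpr115-KO values of Hras were above all WT values, and replicate 2 stood highest (log2 fold change 1.20, SE 0.34, edgeR adjusted p = 0.251). Without Gpr115-KO replicate 2 the value was 0.70. Hras passed in DESeq2 (adjusted p = 0.0461) and in edgeR without the count filter (adjusted p = 0.00104), and the highest adjusted p of Hras in the alternatives was 0.742. Plcg1, the phospholipase that binds activated receptors, had 36.1, 43.7 and 38.4 CPM in Gpr115-KO libraries, against 17.3, 25.8 and 30.1 CPM in WT libraries, again without overlap (log2 fold change 0.69, SE 0.21, edgeR adjusted p = 0.255). Plcg1 passed in edgeR without the count filter (adjusted p = 0.0276), and the highest in the alternatives was 0.759. Of the 24 tested genes of this list, 7 had no overlap, 5 higher and 2 lower in Gpr115-KO, against 17.5% of all genes tested.

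Other negative regulators and targets of FGF-ERK signalling had 0 of 21 tested members past the adjusted threshold out of a list of 28 (0.150% of all genes tested), 1 at an unadjusted p under 0.05 (12.3% of all genes tested), and a median log2 fold change of −0.05. Cnksr3, a scaffold protein known in kidney cells to lower ERK activity, had 4.67, 4.60 and 5.03 CPM in Gpr115-KO libraries, against 8.16, 6.71 and 7.62 CPM in WT libraries. These groups were tight and did not overlap (log2 fold change −0.65, SE 0.24, edgeR adjusted p = 0.309). Il17rd, also named Sef, a membrane inhibitor of FGF receptor signalling, had 1.37, 1.18 and 1.28 CPM in Gpr115-KO libraries and 1.72, 1.48 and 4.07 CPM in WT libraries, which do not overlap, and WT replicate 3 set the WT mean (log2 fold change −0.92, SE 0.48, edgeR adjusted p = 0.465). Without that library the value was −0.33. Of the 21 tested genes of this list, 5 had no overlap, 3 higher and 2 lower in Gpr115-KO, against 17.5% of all genes tested.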

How the data were processed

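RNA of 3 Gpr115-KO and 3 WT libraries, made with a Nextera XT kit that does not mark strand, was sequenced as paired reads, per the labels' protocols. The build GRCm38 (mm10) and the tools STAR 2.5.2a, limma, edgeR and DESeq2 are listed in the submitters' processing notes. The counting of reads and the annotation behind it were not given in the sources used here. As deposited, 1 file held raw counts of each gene and the other was a normalised table of the authors whose signal is CPM scaled by TMM, as its name and values show; dividing each column by 1 factor gave whole reads for 100% of its values (tolerance 0.01 reads). Of the count table, 15 transgene rows with at most 8 counts in a library were left out.

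Members were matched by symbol in the deposited normalised table, and otherwise by gene ID in GENCODE vM21, which also gave positions, overlaps and exonic lengths. Members and gene lists were chosen with earlier results of these data known. All members are named. Values per library are given for members with an unadjusted p under 0.05, without overlap between genotypes, highest per length in their role, or known from molar development, and for most others. Of each further list the 2 genes with the smallest p are named, since none was called.

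Counts of the 16011 genes kept by filterByExpr (with a minimum count of 10 and total of 15) were scaled by TMM and tested with edgeR 4.0.16 in R 4.3.3, in a robust quasi-likelihood fit with genotype as the only term, two-sided, adjusted by Benjamini-Hochberg over all genes. Intervals of 95% come from the same fit. CPM carry no pseudocount, and 1 count was worth 0.0907 to 0.114 CPM. Libraries of a group differed far more than repeated sampling would (chi-square per degree of freedom at least 16.4), so none was treated as a duplicate. Near-identical transcripts were sought with blastn 2.17.0 (95% identity, at least 150 nt). The alternatives tried were library totals, DESeq2 size factors, a stricter filter of 10 counts in each library, no filter, DESeq2 1.42.0, limma-voom (limma 3.58.1), no robust shrinkage, a replicate block, removal of the trend on exonic length and each library left out, and, added after the data were seen, edgeR on the reads recovered from the normalised table and the Fgfr4 limit without each WT library.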

Additional observations from a re-analysis of the deposited data

How the results depend on the processing

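No FGF member was called under any of the 16 alternatives, where the lowest adjusted p was 0.131, and 13 of the 22 fitted values kept their sign throughout. Over all genes, the calls were 135 higher and 365 lower with no count filter, 64 and 179 in DESeq2, 18 and 54 with the replicate block, and 11 lower on library totals alone. Leaving out 1 library gave 5 to 10 higher and 7 to 39 lower genes, with the extremes of lower genes without WT replicate 2 and without Gpr115-KO replicate 1. It also gave 5 to 9 members fitted above 0 and a member median of −0.38 to −0.085, the lowest without Gpr115-KO replicate 3. The sign changed when 1 library was left out for Fgf1 (−0.50 to 1.05), Fgf10 (−0.99 to 0.21), Fgf13 (−0.49 to 0.12), Spry1 (−0.23 to 0.32), Spred1 (−0.17 to 0.037), Dusp4 (−0.38 to 0.58), Dusp6 (−0.021 to 0.27), Etv4 (−0.73 to 0.55) and Etv5 (−0.11 to 0.22). Leaving out 1 library moved the fitted value of 21 of the 22 members by over 1.5 times, Fgfr1 being the exception. A fitted value near 0, such as 0.04 for Dusp4, passes such a ratio easily, and the share over all genes is not given here. The sign also changed for Spred1 with the length trend removed (0.0022) and for Etv4 in limma-voom (0.056); the cause was not tested. Whether replicate numbers pair the libraries stayed unclear. Same-numbered libraries had correlations of 0.27, 0.03 and −0.07 in their deviations from group means. The 0.27 of replicate 1 was the highest between any Gpr115-KO and any WT library, but Gpr115-KO replicate 2 correlated best with WT replicate 3 (0.15). With at least 10 counts in every library 18 of the 22 members were left to test. Low counts limit what can be said of the members below the filter, and the Fgf23 value rests almost wholly on the 48 counts in WT replicate 2.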
